A study of Mus musculus with 3647 samples.

Results

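The Kv1 and Kv3 voltage-gated potassium channels described here are 8 genes of the 23420 in the deposited tables, chosen by name: the Kv1 genes Kcna1, Kcna2, Kcna3, Kcna4 and Kcna6 and the Kv3 genes Kcnc1, Kcnc2 and Kcnc4. The other Kv1 genes Kcna5, Kcna7 and Kcna10 were above 0 in at most 0.848% of the reticular GABAergic nuclei.

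The study sequenced RNA from single mouse nuclei sorted into 96-well plates, with a modified Smart-seq2 protocol, and from Patch-seq samples, whose contents are drawn into a recording pipette. Its main tissue is the thalamic reticular nucleus (TRN), a thin layer of GABAergic neurons that inhibits the thalamus. Of 3647 samples, each 1 nucleus or cell, 2653 had expression values. Of these, 28.4% were TRN nuclei sorted as Violet+ and NeuN+ (a DNA dye and a neuronal protein), 26.2% were TRN nuclei sorted as Violet+ alone, here called dye-sorted, 240 were nuclei of tissue next to the TRN sorted in the same way, and 95 were Patch-seq samples of the TRN. Nuclei sorted as Violet+ and GFP+, called Pvalb+ by the submitters, came from hippocampus (440), M2 cortex (6.3% of the samples with values), somatosensory cortex (5.6%) and striatum (71), and 43 hippocampal nuclei had no sort label. The labels give no strain, age, genotype, sex or treatment, and name no allele or promoter behind the GFP. They also name no animal. Each group therefore counts as 1 sample, no test between groups was possible, and plate ranges describe spread of unknown source.

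Voltage-gated potassium channels are assembled from 4 subunits, and subunits mix within a family but not between families. Kv1 channels open near the firing threshold, sit at axon initial segments and beside the nodes of Ranvier, and limit how readily a neuron fires. Kv3 channels open only at strongly depolarised voltages and close quickly, which lets fast-spiking neurons such as parvalbumin interneurons repeat action potentials at high rates; TRN neurons are known for rapid burst and tonic firing.

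Values are TPM, which are scaled for transcript length and to the same total in every nucleus. Setting levels of different genes side by side also assumes that they were captured equally, which was not tested. Sequencing depth cannot be read from TPM and is unknown. The number of detected genes is given instead, whose median ran from 2426.0 in dye-sorted TRN nuclei to 4983.0 in NeuN-sorted TRN nuclei and 6654.0 in Patch-seq samples. Each interval on a share is an exact Clopper-Pearson 95% interval, for counting error alone. Classes were rebuilt from clusters and marker genes, with the channel genes and their partners left out of the clustering. The names mean "-like" throughout: 57% of the 1447 TRN nuclei with values were GABAergic neuron-like, 200 nuclei were glutamatergic neuron-like, 300 oligodendrocyte-like and 80 astrocyte-like. Gad1, which makes GABA, was above 0 in 98.4% of the TRN GABAergic nuclei and Pvalb in 81.5%, against 19.5% and 25.5% of the TRN glutamatergic nuclei. Slc17a6, a vesicular glutamate transporter, was above 0 in 4.85% of the GABAergic and 97.5% of the glutamatergic TRN nuclei. In the GFP-sorted GABAergic classes Pvalb was above 0 in 57.1 to 70% of nuclei. Gad1 was above 0 in 94.9% of hippocampal GABAergic and 29.3% of hippocampal glutamatergic nuclei; its share ran from 6.58% to 49.2% over the glutamatergic clusters outside the TRN plates.

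The genes lie in groups in the genome (GENCODE vM21, GRCm38, which is mm10). Kcna2 (chr3:107101146-107115005, plus strand), Kcna3 (chr3:107036169-107038070, plus) and Kcnc4 (chr3:107438303-107459552, minus) share 423.4 kb of chromosome 3 with Kcna10. Kcna1 (chr6:126640397-126646384, minus) and Kcna6 (chr6:126708329-126740674, minus) share 208.1 kb of chromosome 6 with Kcna5. Kcna4 is at chr2:107290639-107298502 (plus), Kcnc1 at chr7:46396497-46438704 (plus) and Kcnc2 at chr10:112271121-112467024 (plus). Each Kv1 member has its coding sequence in 1 exon, and each Kv3 member in 4. Antisense genes overlap Kcna3 (Gm27008) and Kcna6 (Gm26673). No source used here says whether the counting used strand, and reads of such a pair cannot be told apart.

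The 250 bases before the transcription start of 3 members follow, from the RefSeq promoter table of GRCm38.p6 and written 5′ to 3′ on the gene's strand. They stand for the 3 patterns described below: Kcnc1 was higher in Spp1-only than in Ecel1-only neurons, Kcna6 was lower, and Kcna4 was lower in GABAergic than in glutamatergic neurons. Capitals mark the GC box GGGCGG or its reverse complement CCGCCC.
Kcnc1 (chr7:46396218-46396467, plus strand): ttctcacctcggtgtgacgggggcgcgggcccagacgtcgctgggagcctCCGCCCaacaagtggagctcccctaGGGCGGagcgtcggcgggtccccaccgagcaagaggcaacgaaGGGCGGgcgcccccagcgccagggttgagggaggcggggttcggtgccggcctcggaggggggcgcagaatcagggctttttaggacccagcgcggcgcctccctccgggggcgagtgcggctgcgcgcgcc
Kcna6 (chr6:126740675-126740924, minus strand): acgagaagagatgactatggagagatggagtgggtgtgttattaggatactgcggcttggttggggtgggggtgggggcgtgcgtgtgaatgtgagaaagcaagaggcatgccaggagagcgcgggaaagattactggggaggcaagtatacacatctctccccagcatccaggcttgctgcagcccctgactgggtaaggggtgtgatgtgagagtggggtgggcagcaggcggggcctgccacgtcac
Kcna4 (chr2:107290339-107290588, plus strand): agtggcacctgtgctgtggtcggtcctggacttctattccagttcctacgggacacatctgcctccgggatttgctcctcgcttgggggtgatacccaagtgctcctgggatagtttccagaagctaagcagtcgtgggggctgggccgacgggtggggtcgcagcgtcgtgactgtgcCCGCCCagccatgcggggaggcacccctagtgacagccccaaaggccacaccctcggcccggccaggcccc
The Kcnc1 window held 3 GC boxes and 30 CpG dinucleotides, at 74.4% GC. The Kcna4 window held 1 GC box and 14 CpG, at 65.2% GC, and the Kcna6 window no GC box and 8 CpG, at 58.8% GC. Of 32817 RefSeq promoter windows of this length, 32.7% held a GC box and the median number of CpG was 6. None of the 3 windows held a TATA box (TATAAA, in 12.4% of promoters), a cyclic AMP response element (TGACGTCA, in 1.55%) or an E-box (CACGTG, in 6.02%), searched on both strands. These matches only describe the letters of the windows. For Kcna4 the bases after the RefSeq start were not found in the gene's GENCODE transcripts, while those of Kcnc1 and Kcna6 were. No promoter entry was used for Kcna1.

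In TRN GABAergic neurons, Kcnc1, Kcna1, Kcnc2 and Kcna2 had the highest levels, Kcna6 and Kcnc4 were found in a minority of nuclei, and Kcna4 and Kcna3 were rare. The order of mean levels was Kcnc1, Kcna1, Kcnc2, Kcna2, Kcna6, Kcnc4, Kcna4, Kcna3. Each member's plate range overlapped that of its neighbour in this order, over the 19 plates with at least 10 such nuclei.

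Among the Kv3 members, Kcnc1 (Kv3.1), the subunit most linked to fast spiking, was above 0 in 94.9% of nuclei (93.2 to 96.3%) and averaged 163.8 TPM; plate means were 157.8 TPM at the median and ran between 103.5 and 341.1 TPM (SD 53.5, 19 plates). Kcnc2 (Kv3.2), its usual partner in interneurons, was above 0 in 71.03% (67.8 to 74.1%) and averaged 93.8 TPM, with plate means between 41.8 and 129.05 TPM (SD 24.1). Kcnc4 (Kv3.4), whose channels inactivate quickly, was above 0 in 26.7% (23.7 to 29.8%) and averaged 26.02 TPM, with plate means between 0 and 85.8 TPM (SD 20.7). Kcnc4 was thus uneven among nuclei: those above 0 had a median of 57.8 TPM and a highest value of 910.3 TPM.

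Among the Kv1 members, Kcna1 (Kv1.1), the episodic ataxia gene, was above 0 in 80.7% (77.9 to 83.4%) and averaged 133.8 TPM, with plate means between 19.9 and 194.4 TPM (SD 46.1). Kcna2 (Kv1.2), which forms axonal channels with Kcna1, was above 0 in 84% (81.3 to 86.4%) and averaged 65.1 TPM, with plate means between 7.12 and 126.6 TPM (SD 28.6). Kcna6 (Kv1.6) was above 0 in 37.8% (34.5 to 41.2%) and averaged 32.03 TPM. Kcna4 (Kv1.4), the Kv1 subunit that gives a rapidly inactivating current, was above 0 in 10.8% (8.75 to 13.1%) and averaged 8.55 TPM. Kcna3 (Kv1.3), best known in lymphocytes and microglia, was above 0 in 29 nuclei (3.52%, 2.37 to 5.01%) and averaged 3.51 TPM. A GABAergic nucleus had a median of 4.0 of the 8 members above 0, a glutamatergic one 5.0 and an oligodendrocyte 2.0. Of the Kv1 sum of 243.02 TPM, Kcna1 was 55.1% and Kcna2 26.8%. Of the sum of the 3 Kv3 members, 283.6 TPM, Kcnc1 was 57.8%, Kcnc2 33.1% and Kcnc4 9.17%.

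**Figure D1:**
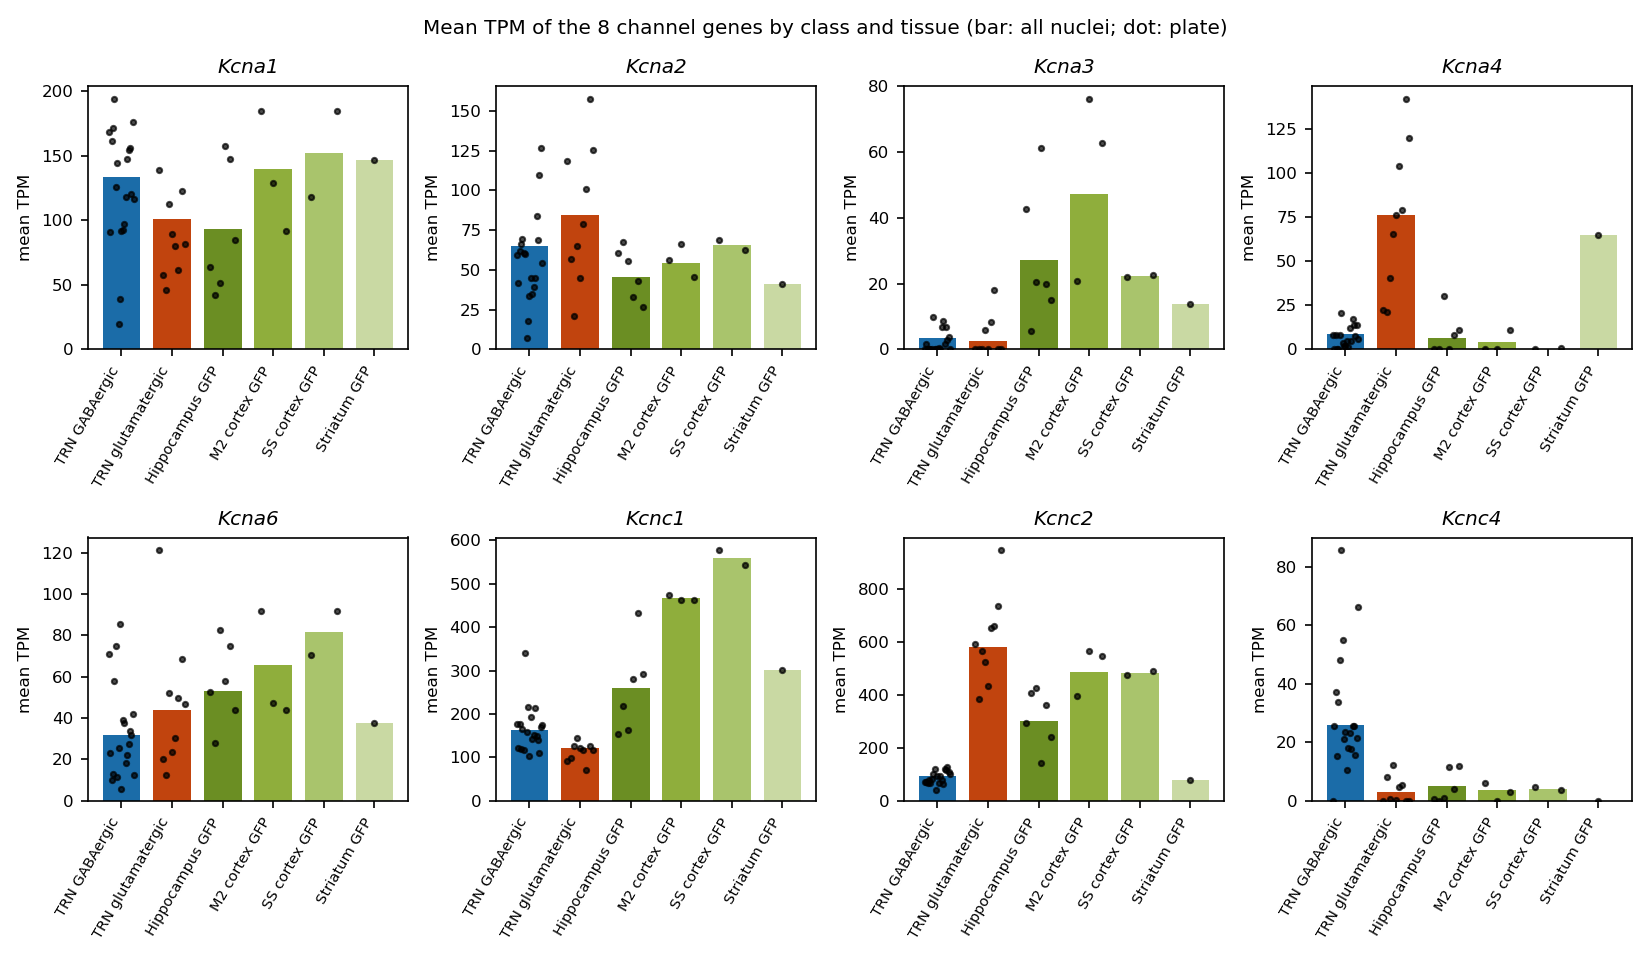
Mean TPM of each channel gene in TRN GABAergic and glutamatergic nuclei and in GABAergic nuclei of the 4 GFP-sorted regions; bars are means over all nuclei of a class and dots are means of plates with at least 10 of its nuclei. Kcnc2 and Kcna4 plates of glutamatergic nuclei lie above every TRN GABAergic plate, and Kcnc4 averaged 26.02 TPM in TRN GABAergic nuclei and at most 5.16 TPM in the other classes drawn.

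The second comparison set GABAergic against glutamatergic nuclei of the same TRN plates; the glutamatergic class carries thalamic relay markers. Kcnc4 was higher and Kcnc2 and Kcna4 lower in GABAergic neurons, while Kcnc1, Kcna1, Kcna2 and Kcna6 differed by less than the 2-fold limit (a log2 ratio of 1 in either direction). The counts were 1 member higher and 2 lower of 8, 7 of which were above 0 in at least 5% of nuclei of either class. Among 13137 genes passing that filter 8.79% were higher and 9.54% lower. Members had a median log2 ratio of -0.02, against -0.00 over all genes. Median detected genes were 4795.0 in GABAergic and 4969.0 in glutamatergic nuclei.

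Kcnc2 averaged 93.8 TPM in GABAergic and 580.5 TPM in glutamatergic nuclei, a log2 ratio of -2.62, and was above 0 in 71.03% and 99% of them. Plate means did not overlap, between 41.8 and 129.05 TPM over 19 GABAergic plates and between 384.2 and 947.8 TPM over 9 glutamatergic plates. On the 14 plates with at least 5 nuclei of each class, the log2 ratio was below 0 on all 14 and averaged -2.65 (SD 0.40). Kcnc2 thus gave 82.3% of the sum of the 3 Kv3 members in glutamatergic nuclei.

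Kcna4 averaged 8.55 TPM in GABAergic and 76.2 TPM in glutamatergic nuclei (log2 ratio -3.02) and was above 0 in 10.8% and 57.5% of them. Its plate means did not overlap either, between 0 and 20.7 TPM in GABAergic nuclei and between 21.3 and 142.5 TPM in glutamatergic nuclei. It was lower in GABAergic nuclei on 14 of 14 plates, with log2 ratios between -6.56 and -1.09.

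Kcnc4 averaged 26.02 TPM in GABAergic and 3.03 TPM in glutamatergic nuclei (log2 ratio 2.75) and was above 0 in 26.7% and 4.50% of them. It was higher in GABAergic nuclei on 14 of 14 plates, with log2 ratios between 0.35 and 6.44, and plate means overlapped (0 to 85.8 TPM in GABAergic and 0 to 12.3 TPM in glutamatergic nuclei). Kcnc2 and Kcnc4, from the same family, thus lay on opposite sides.

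The other members were closer. Kcnc1 averaged 163.8 TPM in GABAergic and 121.4 TPM in glutamatergic nuclei (log2 ratio 0.43) and was higher in GABAergic nuclei on 12 of 14 plates. Kcna1 averaged 133.8 and 101.1 TPM in GABAergic and glutamatergic nuclei (0.40, higher on 9 of 14 plates); among dye-sorted nuclei alone its log2 ratio was -0.10. Kcna2 averaged 65.1 and 84.4 TPM (-0.37, higher on 5 of 14), and Kcna6 32.03 and 43.9 TPM (-0.44, higher on 2 of 14), in the same order of classes. Kcna3 was above 0 in 3.52% of GABAergic nuclei and in 3 of 200 glutamatergic nuclei.

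Of 13 genes whose proteins bind or anchor Kv1 channels or their complexes, 1 was higher and 3 lower in GABAergic nuclei, with a median log2 ratio of -0.39. Dlg2, the scaffold PSD-93, averaged 138.9 TPM in GABAergic and 31.4 TPM in glutamatergic nuclei (log2 ratio 2.11). Its relative Dlg4 (PSD-95) went the other way, with 30.7 and 100.9 TPM (-1.68). The beta subunit Kcnab1, which can confer fast inactivation on Kv1 channels, had 16.2 TPM in GABAergic and 111.8 TPM in glutamatergic nuclei (-2.71), and Adam11, a membrane protein that places Kv1 channels at cerebellar terminals, 171.3 and 370.4 TPM (-1.11).

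The same contrast in GFP-sorted hippocampal plates showed other signs for the Kv3 genes. In 99 GABAergic against the glutamatergic hippocampal nuclei (58.2% of the 440), Kcnc1, Kcnc2 and Kcna6 were higher and Kcna4 and Kcnc4 lower, 3 and 2 of 8 members, where 11.9% of 13838 genes were higher and 13.7% lower. Kcnc1 averaged 259.1 TPM in GABAergic and 35.6 TPM in glutamatergic nuclei (log2 ratio 2.83) and Kcnc2 301.8 and 48.97 TPM (2.60), each higher in GABAergic nuclei on 7 of 7 plates. Kcna6 averaged 53.2 and 19.8 TPM (1.38, 7 of 7). Kcnc4 averaged 5.16 TPM in GABAergic and 20.5 TPM in glutamatergic nuclei (-1.80) and was lower in GABAergic nuclei on 7 of 7 plates, and Kcna4 averaged 6.69 and 63.02 TPM (-3.06, lower on 7 of 7). Kcnc2 and Kcnc4 thus had opposite signs in TRN and hippocampal plates, while Kcna4 was lower in the GABAergic class of both; the difference between tissues was not tested. With only those glutamatergic nuclei that had Gad1 at 0, the hippocampal ratio was 2.76 for Kcnc2 and -1.52 for Kcnc4; when classes were set by a marker gate Kcna6 had 0.51, inside the 2-fold limit. Cortical glutamatergic nuclei also held Kcnc4, at 92.7 TPM in M2 (52 nuclei) and 52.8 TPM in somatosensory cortex (20 nuclei).

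**Figure D2:**
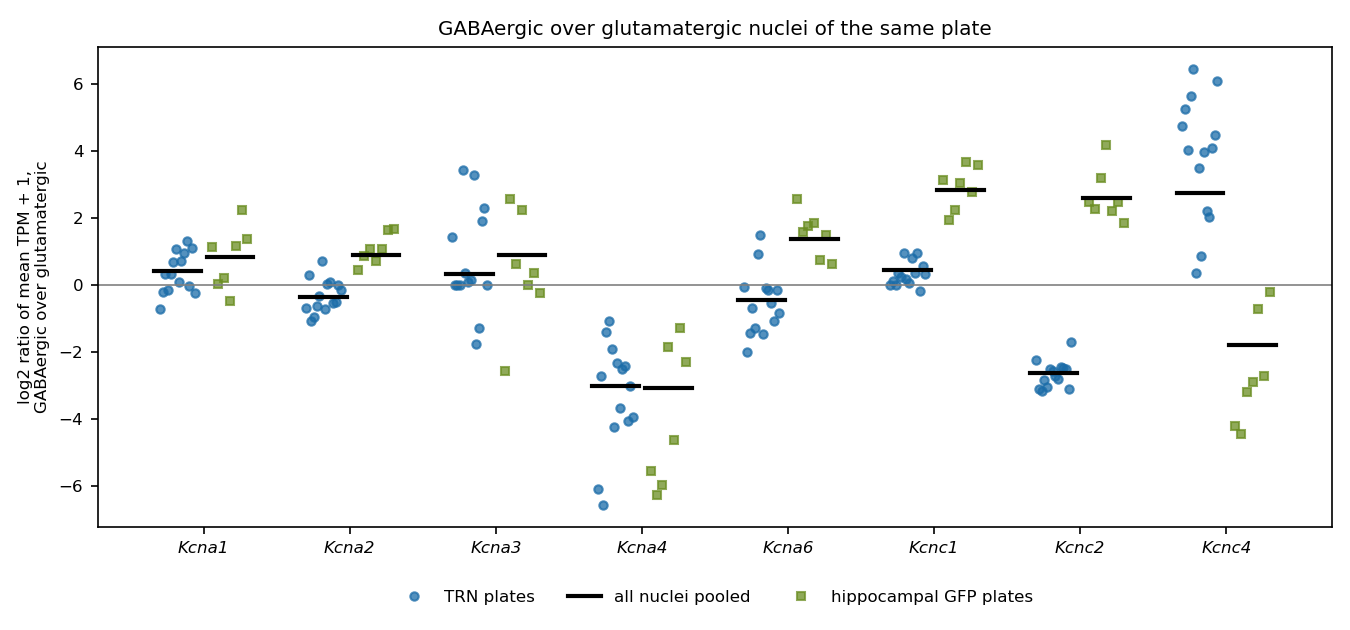
Log2 ratio of mean TPM plus 1, GABAergic over glutamatergic nuclei of the same plate, for TRN plates (14, circles) and hippocampal GFP plates (7, squares); black bars are the ratios over all nuclei. Kcnc2 lies below 0 on every TRN plate and above 0 on every hippocampal plate, Kcnc4 the reverse, and Kcna4 lies below 0 in both.

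The third comparison asked how the channels differ among the TRN GABAergic nuclei. Spp1 and Ecel1 mark the poles of a molecular gradient in the TRN. 33.2% of GABAergic nuclei had Spp1 above 0 and Ecel1 at 0 (Spp1-only), 33.7% had the reverse (Ecel1-only), 38 nuclei had both and 28.5% neither. Spp1-only neurons had more Kcna1, Kcna2 and Kcnc1, and less Kcnc4, Kcna6, Kcna4 and Kcna3, past the 2-fold limit. These were 3 of 8 members higher and 4 of 8 lower, Kcna3 being below the 5% filter, where 5.58% of 12929 genes were higher and 6.86% lower. The count of lower members was 1, Kcnc4, with a pseudocount of 10 TPM in place of 1, and 2 in dye-sorted nuclei alone. Members had a median log2 ratio of -0.91, against 0.04 over all genes. Spp1-only nuclei had more detected genes (median 5264.0) than Ecel1-only nuclei (4618.5). The part of depth was not tested beyond nuclei with 4000 to 6000 detected genes, where Kcna1 had a log2 ratio of 1.82, Kcna2 1.37, Kcnc1 1.13, Kcnc4 -2.97 and Kcna6 -0.96.

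Kcna1 had a median over nuclei of 210.7 TPM in Spp1-only and 32.8 TPM in Ecel1-only nuclei, with values up to 758.96 and 502.2 TPM and down to 0 in both. The means were 225.4 TPM in Spp1-only and 70.1 TPM in Ecel1-only nuclei (log2 ratio 1.67), and 96.7% and 70.5% of nuclei were above 0. Nuclei of the classes overlapped widely, but means of plates with at least 10 nuclei of a kind did not, at 135.99 to 296.4 TPM over 10 Spp1-only plates and 38.7 to 113.5 TPM over 11 Ecel1-only plates. With smaller plates the means overlapped, since a plate with 6 Ecel1-only nuclei averaged 195.2 TPM. On the 15 plates with at least 5 nuclei of each kind, the log2 ratio was above 0 on all 15 and averaged 1.75 (SD 0.63).

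Kcna2, the axonal partner of Kcna1, had a median of 73.4 TPM in Spp1-only and 15.6 TPM in Ecel1-only nuclei. It averaged 101.4 and 37 TPM (log2 ratio 1.43) and was higher in Spp1-only nuclei on 15 of 15 plates (mean ratio 1.33, SD 0.50). Plate means overlapped, at 50.6 to 182.3 TPM in Spp1-only and 18.4 to 78.5 TPM in Ecel1-only nuclei. Both genes were above 0 together in 93.1% of Spp1-only and 55.04% of Ecel1-only nuclei.

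Kcnc1 showed the same side among the Kv3 genes, with a median of 215.1 TPM in Spp1-only and 73.2 TPM in Ecel1-only nuclei. The log2 ratio of its means was 1.17, and plate means were 157.7 to 318.8 TPM in Spp1-only and 64.7 to 186.8 TPM in Ecel1-only nuclei, which overlap. It was higher in Spp1-only nuclei on 15 of 15 plates and was above 0 in 99.3% and 93.9% of nuclei.

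Kcnc4 went the other way, with 8.98 TPM in Spp1-only and 46.4 TPM in Ecel1-only nuclei (log2 ratio -2.25). It was above 0 in 10.9% and 42.8% of nuclei, and 1 of 15 plates was higher in Spp1-only nuclei. Another plate had it at 0 in both kinds. Kcnc2 averaged 75.1 TPM in Spp1-only and 116.2 TPM in Ecel1-only nuclei, a log2 ratio of -0.62 that stayed inside the 2-fold limit, and was higher in Spp1-only nuclei on 1 of 15 plates. Kcnc1 exceeded Kcnc2 in 82.1% of Spp1-only nuclei and in 50.7% of Ecel1-only nuclei. Of the sum of the 3 Kv3 members, Kcnc1 was 73.7% in Spp1-only and 39.02% in Ecel1-only nuclei, Kcnc2 23.5% and 43.6%, and Kcnc4 2.81% and 17.4%.

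Among the scarcer Kv1 genes, Kcna6 averaged 16.8 TPM in Spp1-only and 42.5 TPM in Ecel1-only nuclei (log2 ratio -1.29; 2 of 15 plates higher in Spp1-only). Kcna4 averaged 4.44 and 11.4 TPM (-1.19), but in dye-sorted nuclei alone its ratio was 0.68. It was higher in Spp1-only nuclei on 2 of 15 plates and at 0 in both kinds on some others. Its within-plate log2 ratio averaged -1.08 (SD 2.96). Kcna3 was above 0 in 0.730% of Spp1-only and 4.32% of Ecel1-only nuclei. The Kv1 sum was 348.3 TPM in Spp1-only and 164.6 TPM in Ecel1-only nuclei, of which Kcna1 made up 64.7% and 42.6% and Kcna6 4.84% and 25.8%.

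**Figure D3:**
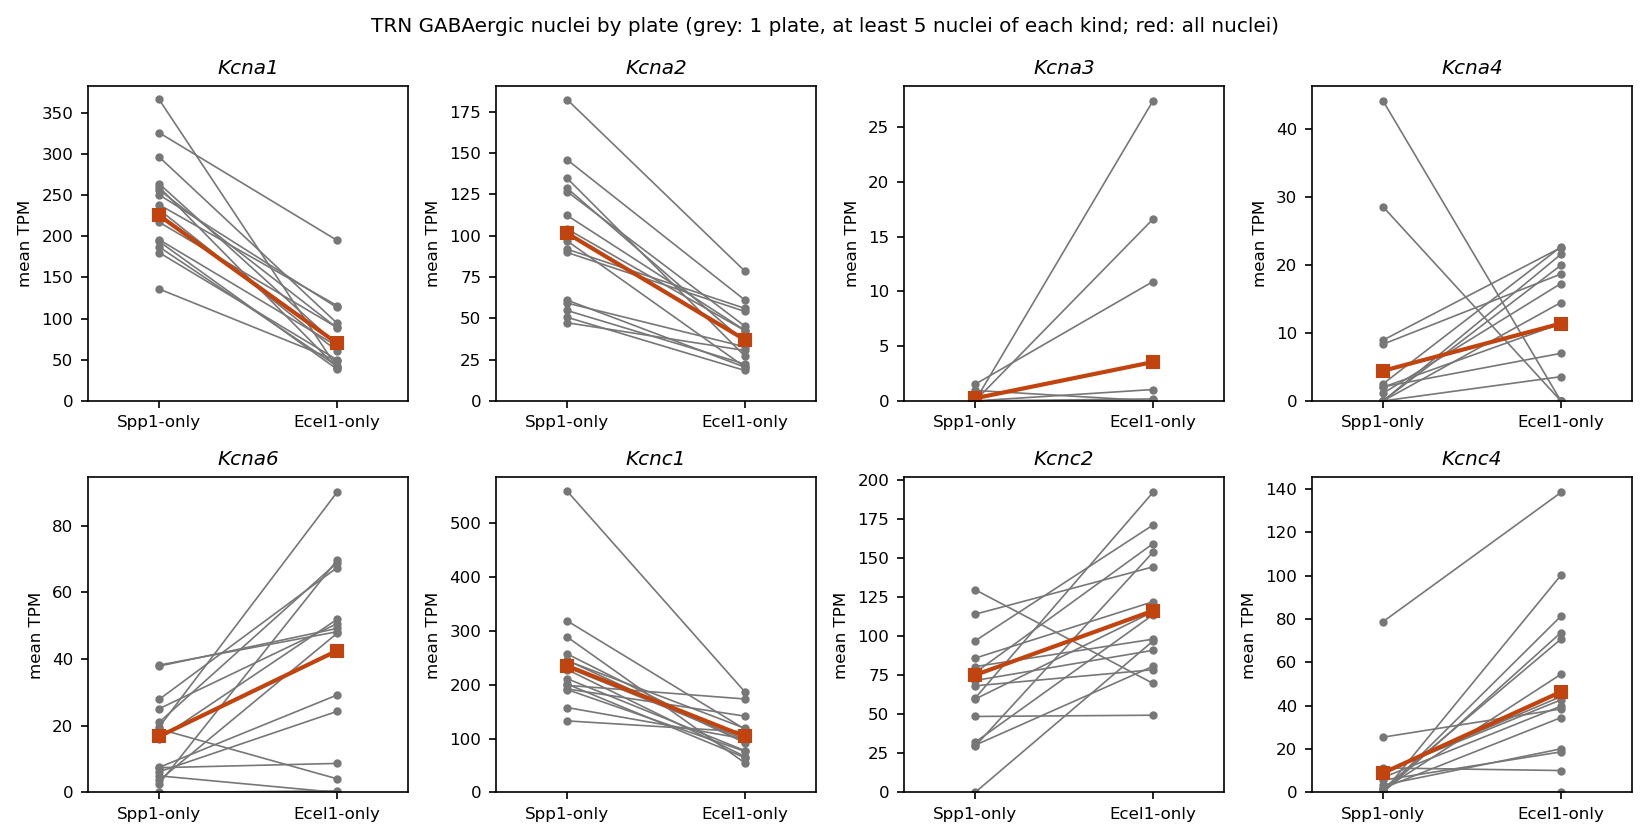
Mean TPM of each channel gene in Spp1-only (left) and Ecel1-only (right) GABAergic nuclei of the TRN; each grey line is 1 of 15 plates with at least 5 nuclei of each kind, and red squares are means over all nuclei. Kcna1, Kcna2 and Kcnc1 were higher in Spp1-only nuclei on 15 of 15 plates, and Kcnc4 and Kcnc2 on 1 of 15.

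**Figure D4:**
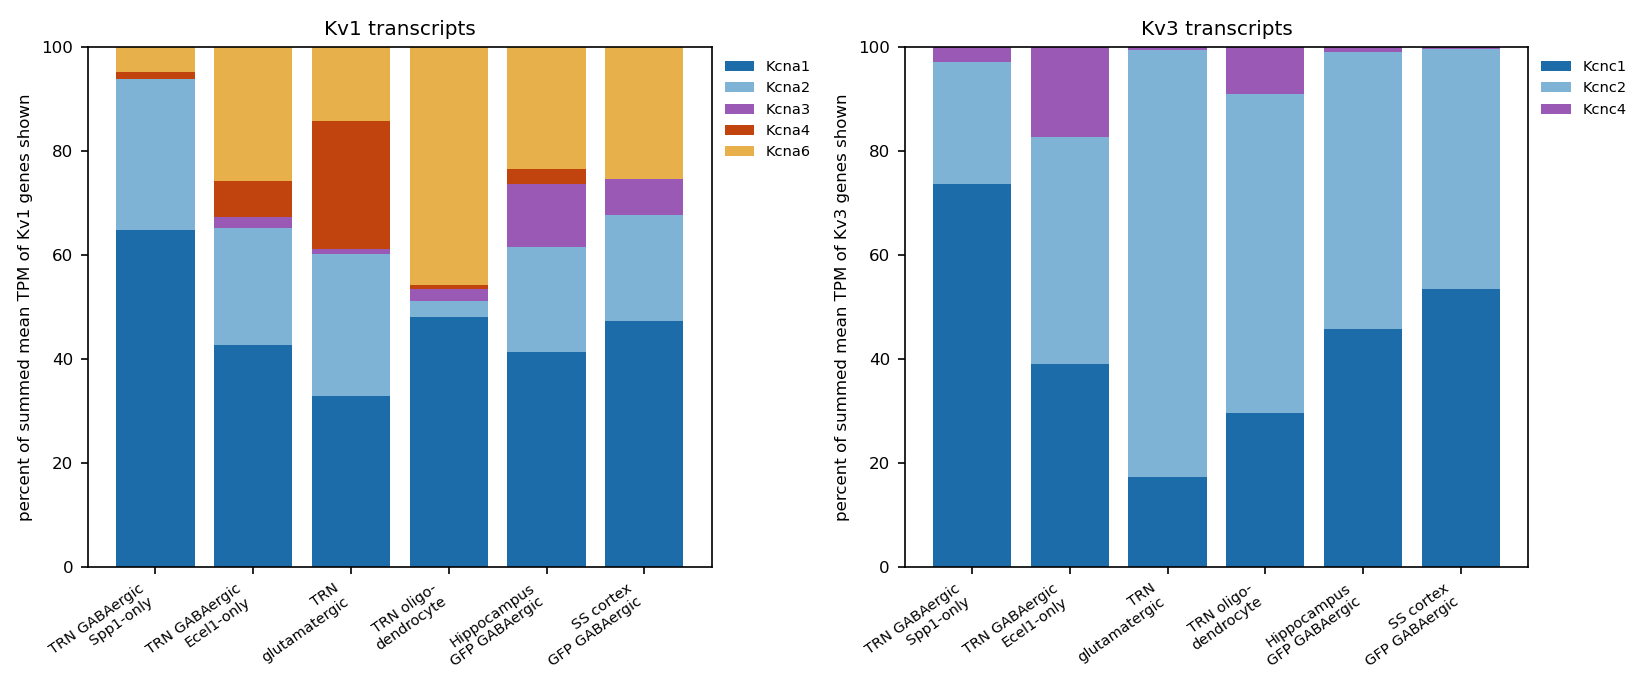
Share of each gene in the summed mean TPM of the 5 Kv1 members (left) and the 3 Kv3 members (right), in percent, by class. Kcnc1 made up 73.7% of the Kv3 members' sum in Spp1-only nuclei and 39.02% in Ecel1-only nuclei, and Kcna6 45.9% of the Kv1 members' sum in TRN oligodendrocytes.

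Of the 13 partner genes, 2 were higher and 1 lower in Spp1-only nuclei, with a median log2 ratio of 0.28. The beta subunits Kcnab3 (430.9 TPM in Spp1-only and 171.01 TPM in Ecel1-only nuclei, 1.33) and Kcnab2 (81.2 and 33.1 TPM, 1.27) were higher. Dlg1, the scaffold SAP97, was lower, with 2.62 TPM in Spp1-only and 19.6 TPM in Ecel1-only nuclei (-2.51). The kinds were spread differently over clusters: 42.7% and 37.96% of Spp1-only nuclei were in 2 clusters that held 6.47% and 18.7% of Ecel1-only nuclei. Spp1 and Ecel1 were not left out of the clustering, so clusters and kinds are not independent. Oligodendrocyte markers, which neuronal nuclei should lack, summed to a median of 18.02 TPM in Spp1-only and 17.2 TPM in Ecel1-only nuclei, and to means of 600.9 and 1034.7 TPM; in nuclei with at most 2 of the 8 markers above 0, Kcna1 had a ratio of 1.68, Kcna2 1.52, Kcnc1 1.18 and Kcna6 -1.23.

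A cluster of 16.4% of the TRN GABAergic nuclei was picked for its low shares of nuclei with Pvalb and with the reticular transcription factor Six3 above 0. By that choice it was low in Pvalb (27.2 TPM, against 837.1 TPM in the other 690) and in Six3 (13.6 TPM, against 134.7 TPM). It held 19.4% of Ecel1-only and 2.19% of Spp1-only nuclei. It had less Kcna1, with 46.5 TPM against 150.9 TPM in the other GABAergic nuclei (log2 ratio -1.68), and less Kcnc1, with 64.99 TPM against 183.1 TPM (-1.48); both were lower on 8 of 8 plates. It had more Kcna3, with 14.7 TPM against 1.32 TPM (2.76), and more Kcna4, with 22.5 TPM against 5.81 TPM (1.79). That is 2 of 8 members higher and 2 lower, where 9.98% and 7.72% of 13178 genes were. Without these nuclei Kcna1 still had a Spp1-only to Ecel1-only ratio of 1.62, Kcna2 1.53, Kcnc1 1.07 and Kcnc4 -2.16, and Kcna4 -0.74, inside the 2-fold limit.

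Patch-seq samples gave the same contrast in whole recorded neurons, 32 Spp1-only against 26 Ecel1-only, with medians of 6670.0 and 6794.0 detected genes. Kcna1 and Kcnc1 were higher and Kcna3, Kcna4, Kcna6 and Kcnc2 lower past the 2-fold limit, 2 and 4 of 8 members, Kcna3 being below the 5% filter, where 14.3% of 16290 genes were higher and 16.2% lower. Kcna1 had a median of 204.2 TPM (0 to 589.6) in Spp1-only and 84.8 TPM (0 to 331.5) in Ecel1-only cells, and averaged 221.7 and 108.5 TPM (log2 ratio 1.02). Kcnc1 had medians of 130.8 and 50.5 TPM and averaged 185.1 and 85.3 TPM (1.11). Single cells of the kinds overlapped for both genes.

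Kcna2 averaged 70.1 TPM in Spp1-only and 38.1 TPM in Ecel1-only cells (log2 ratio 0.86), inside the 2-fold limit. Kcnc2 averaged 20.2 and 59.4 TPM (-1.51), Kcna6 8.90 and 72.9 TPM (-2.90) and Kcna4 0.277 and 7.96 TPM (-2.81). For Kcna6 the medians were 0 and 24.8 TPM, and 1 Ecel1-only cell had 828.2 TPM. Kcna3 was listed at 0 in all 32 Spp1-only cells and above 0 in 1 of 26 Ecel1-only cells. Kcnc4 averaged 47.1 TPM in Spp1-only and 41.7 TPM in Ecel1-only cells (0.17), with 1 Spp1-only cell at 842.1 TPM; its medians were 0 and 6.77 TPM, and it was above 0 in 34.4% and 57.7% of cells. As a difference of mean log2 values it was -1.13. Without 1 of the 3 batches the ratio was -1.0 for Kcnc4 and -0.88 for Kcna6, and without another Kcna1 had 0.55 and Kcnc1 0.98, and no member was higher past the limit. Over the runs that left out a batch, the Kcnc1 ratio ran from 0.84 to 1.23. A pipette can draw in other cells. Microglial markers summed to a median of 212.5 TPM in Spp1-only and 25.9 TPM in Ecel1-only cells, with 9 of 9 markers above 0 in at least 5% of cells of each kind, and oligodendrocyte markers to 2496.7 and 883.5 TPM. In the 43 of 95 cells with C1qa, C1qb and C1qc at 0, 11 Spp1-only and 14 Ecel1-only, Kcna1 had a ratio of 1.46, Kcna2 1.61, Kcnc1 1.61 and Kcnc4 -0.48.

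Beside NeuN-sorted GABAergic nuclei, the 95 Patch-seq samples had 2 of 8 members lower, Kcnc2 and Kcna3 (the second below the 5% filter), and none higher, where 7.26% of 15137 genes were higher and 26.9% lower, with a median over all genes of -0.53. Kcnc2 averaged 34.8 TPM in Patch-seq samples and 97.3 TPM in nuclei (-1.46), and Kcna1 153.6 and 134.02 TPM (0.20).

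The fourth comparison set TRN GABAergic nuclei against GFP-sorted GABAergic nuclei, taken as the mean of 4 region means (99 hippocampal nuclei, 60.1% of the M2 nuclei, 120 somatosensory and 14 striatal nuclei). The tables were deposited separately and clustered separately. TRN nuclei were sorted by dye with or without NeuN, and region nuclei by dye and GFP. Tissue, sort and table therefore cannot be told apart. Median detected genes were 4795.0 in TRN and 4267.0 in GFP-sorted GABAergic nuclei. TRN GABAergic nuclei had more Kcnc4 and less Kcnc1, Kcnc2 and Kcna3, with similar mean Kcna1 and Kcna2. In all 1 member was higher and 4 lower past the 2-fold limit, where 8.72% of 13045 genes were higher and 11.7% lower, and members had a median log2 ratio of -0.97 against -0.13 over all genes.

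Kcnc1 averaged 163.8 TPM in the TRN and 397.1 TPM over the regions (log2 ratio -1.27): 259.1 TPM in hippocampus, 560.01 in somatosensory cortex and 301.1 in striatum, with M2 plates at 462.6 to 474.8. Plate means of the TRN (103.5 to 341.1 TPM) lay below those of both cortical areas (462.6 to 577.9 TPM) and overlapped those of hippocampus. Kcnc2 averaged 93.8 TPM in the TRN and 336.8 TPM over the regions (-1.83), but the striatum had 77.4 TPM and hippocampus, M2 and somatosensory cortex 301.8, 485.5 and 482.3 TPM. TRN plates (41.8 to 129.05 TPM) lay below every hippocampal and cortical plate (143.3 to 567.8 TPM) and not below the striatal one.

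Kcnc4 averaged 26.02 TPM in the TRN and 3.27 TPM over the regions (log2 ratio 2.66), with 5.16, 3.79, 4.14 and 0 TPM in hippocampus, M2, somatosensory cortex and striatum. It was above 0 in 26.7% of TRN nuclei and in at most 9.09% of those of a region, and plate means overlapped (0 to 85.8 TPM in the TRN and 0 to 11.8 TPM in the regions). Kcna3 averaged 3.51 TPM in the TRN and 27.6 TPM over the regions (-2.66), with 3.52% of TRN nuclei above 0.

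Kcna1 averaged 133.8 TPM in the TRN and 132.9 TPM over the regions (log2 ratio 0.01), Kcna2 65.1 and 51.8 TPM (0.32) and Kcna6 32.03 and 59.4 TPM (-0.87). Kcna4 averaged 8.55 TPM in the TRN and 19 TPM over the regions (-1.07). That value rested on 3 of 14 striatal nuclei, which brought the striatal mean to 64.9 TPM; without the striatum the ratio was 1.02. Kcnab1 was lower in the TRN among the partners (16.2 against 131.2 TPM over the regions, -2.94), as was Lgi1, a secreted protein of Kv1 complexes (30.3 against 71.3 TPM, -1.21), 2 of 13 with none higher. The region classes came from different clusters: 99.2% of somatosensory, 64.4% of M2 and 92.9% of striatal nuclei were in 1 cluster that held 20.2% of hippocampal ones.

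Beside the TRN, 47 GABAergic nuclei of the adjacent tissue had more Kcnc4 (65.7 TPM, against 26.02 TPM in the TRN, log2 ratio 1.30), Kcna4 (21.6 against 8.55 TPM, 1.24) and Kcna3 (1.45, from 1 nucleus and below the 5% filter), 3 of 8 members higher and none lower, where 5.43% of 12800 genes were higher and 12.6% lower. The adjacent group pooled 4 plates, with GPE, gpe or Thr in their names, so it may not be a single tissue. NeuN-sorted against dye-sorted TRN GABAergic nuclei differed past the limit in 1 member, where 5.71% of 12718 genes were higher and 2.04% lower. That was Kcnc4, with 19.9 TPM in NeuN-sorted and 42.3 TPM in dye-sorted nuclei (-1.05). The sorts lie on different plates, and 1 cluster held 32.6% of NeuN-sorted and 0.442% of dye-sorted GABAergic nuclei; sort and plate cannot be told apart.

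TRN oligodendrocytes held Kcna1 and Kcna6, and little of the Kv3 genes. On 12 dye-sorted plates, neurons had 5 of 8 members higher and 2 lower than oligodendrocytes, Kcna6 and Kcna3 (1.93 TPM in neurons and 11.1 TPM in oligodendrocytes, below the 5% filter), where 36.9% of 12517 genes were higher and 12.8% lower. Kcnc1 averaged 166.1 TPM in neurons and 1.75 TPM in oligodendrocytes (log2 ratio 5.92), and Kcnc2 177.2 and 7.63 TPM (4.37), each higher in neurons on 12 of 12 plates. Kcna6 averaged 38.02 TPM in neurons and 213.8 TPM in oligodendrocytes (-2.46) and was lower in neurons on 12 of 12 plates. Kcna1 averaged 135.3 and 220.9 TPM (-0.70), lower in neurons on 10 of 12. Median detected genes were 4374.5 in neurons and 1989.0 in oligodendrocytes, so a share above 0 cannot be set level across them, yet Kcna1 was above 0 in 78.2% of neurons and 78.04% of oligodendrocytes.

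Over all 300 TRN oligodendrocytes, Kcna6 was above 0 in 55.3% (49.5 to 61.05%) and Kcnc1 in 7.67% (4.92 to 11.3%). Neuronal markers summed to a median of 3.54 TPM and a mean of 308.5 TPM there, and GABAergic markers to 68.5 and 305.6 TPM. Whether RNA from neurons adds to the channel values of these nuclei was not tested. In the 80 astrocytes Kcna1 was above 0 in 3.75%, Kcnc1 in 7.50% and Kcna2 in 38.8%. In striatal projection neuron-like nuclei Kcna4 was the leading member, with 143.96 TPM on adjacent-tissue plates and 158.9 TPM on the striatal plate (18 nuclei each), while Kcnc4 was listed at 0 in all of them.

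Within TRN GABAergic nuclei, the members were ranked against each other by Spearman rho inside each of 13 plates with at least 20 nuclei. Nuclei of a plate share their preparation and differ in depth, so these values only describe. Of 28 pairs, 3 had a median rho of at least 0.2: Kcna1 with Kcnc1 (0.37, between 0.07 and 0.49), Kcna1 with Kcna2 (0.32, 0.12 to 0.67) and Kcna2 with Kcnc1 (0.30, 0.19 to 0.48), each positive on 13 of 13 plates. With the number of detected genes partialled out they were 0.32, 0.31 and 0.28. In Patch-seq batches, where detected genes were not partialled out, they were 0.58, 0.56 and 0.40. Other pairs also passed 0.2 there, among them Kcna6 with Kcnc2 (0.37), Kcna3 with Kcna4 (0.35) and Kcna4 with Kcnc2 (0.34). Kcna1 with Kcna3 had -0.26 in these batches. These are the 3 genes that were higher in Spp1-only neurons. The ranks pooled Spp1-only and Ecel1-only nuclei, so these values are not independent of that contrast. No rho was computed within either kind.

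On the other side, Kcnc1 and Kcnc4 had a median rho of -0.20 and were negative on 13 of 13 plates (-0.38 to -0.10), but had 0.17 in Patch-seq. Kcna1 and Kcna3 had -0.20 over 9 plates and -0.07 with detected genes partialled out. The other 23 pairs lay between -0.18 and 0.14; Kcnc1 and Kcnc2, the members of one channel in interneurons, had -0.05.

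**Figure D5:**
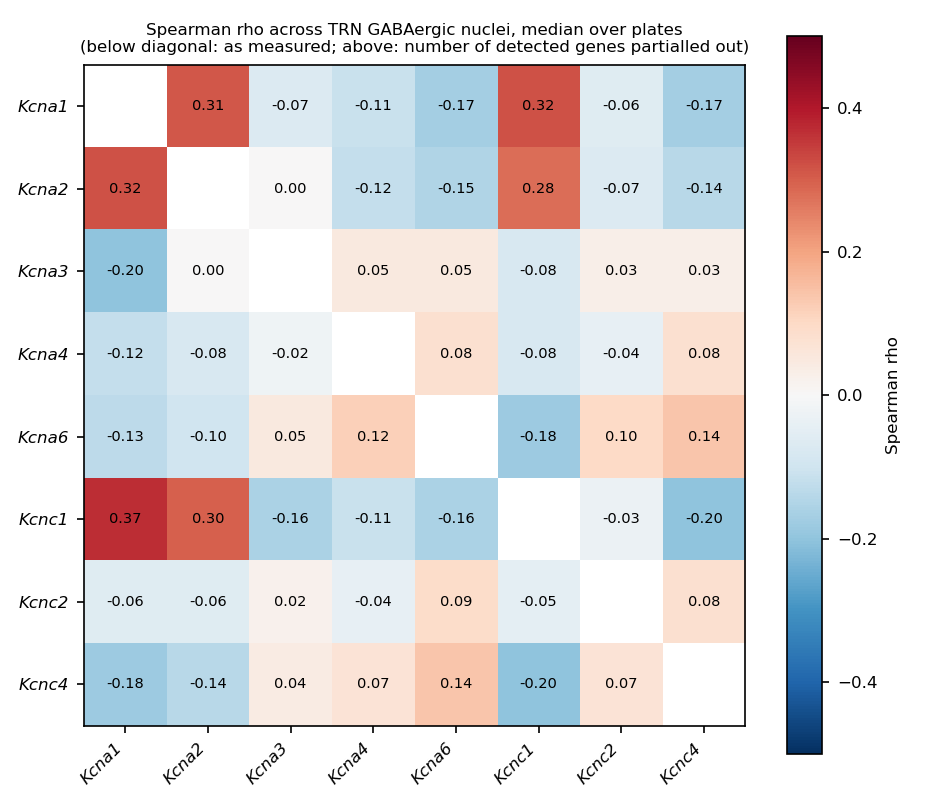
Median within-plate Spearman rho between the channel genes across TRN GABAergic nuclei, as measured (below the diagonal) and with the number of detected genes partialled out (above it); colour gives rho on a linear scale. Kcna1, Kcna2 and Kcnc1 have values of 0.30 to 0.37 with each other as measured, and Kcnc4 has -0.20 with Kcnc1.

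Across 8654 genes found in at least 20% of these nuclei, those ranked most like Kcna1 were Spp1 (median rho 0.54), Scn4b (0.54) and Coro6 (0.49). Scn4b is a sodium channel beta subunit linked to resurgent current. Kcna2 ranked most like Scn4b (0.43), Spp1 (0.39) and Col24a1 (0.36), and Kcnc1 most like Malat1, a nuclear noncoding RNA (0.47), the perineuronal net proteoglycan Bcan (0.47) and Spp1 (0.44). For the rest the 3 leading values were lower, among them Kcnc4 with Gria1, an AMPA receptor subunit (0.30), Gpm6a (0.28) and Rtn1 (0.27), Kcna3 with Nova1 and Slc24a3 (0.25 and 0.25, 9 plates), Kcna4 with Dab1 and Tmsb4x (0.26 and 0.23), Kcna6 with Tmem130 and Zcchc12 (0.24 and 0.23), and Kcnc2 with Kctd16, Trank1 and Lrp8 (0.23, 0.21 and 0.20).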

How the data were processed

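The authors deposited TPM for samples outside the TRN plates and for Patch-seq. The deposited TRN-plate table holds a natural log, ln(1 + TPM × a factor that differs by nucleus), as its values show. After undoing it and rescaling columns to 1000000, each of 236907 values below 2 TPM lay within 0.1 steps of some multiple of 0.01. The factors ran from 0.288 to 6.03. The design had assumed TPM in every table. RSEM, Bowtie, TopHat2 2.0.10, Seurat 2.2.0 and mm10 come from the submitters' processing notes, which give no order. The 994 samples without values were not analysed here; the lowest detected-gene number among nuclei was 1503. Class sizes were 825 TRN GABAergic (274 Spp1-only, 278 Ecel1-only, 235 with neither, 135 in the low-Pvalb cluster), 256 hippocampal glutamatergic and 334 GFP-sorted GABAergic nuclei (101 from M2), and groups held 753 NeuN-sorted TRN, 694 dye-sorted TRN, 168 M2 and 149 somatosensory nuclei.

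Each table was clustered separately on log2(TPM + 1): the 2000 most variable genes, limited to 5 SD, 30 principal components, 15 neighbours and Leiden at resolution 1, keeping the best of 20 random starts by modularity, between which the glutamatergic class outside the TRN plates held 263 to 362 nuclei. The members, their relatives and their partners, 25 genes, were left out. A marker counted when above 0 in at least 50% of a cluster; neurons needed 4 of 7 neuronal and GABAergic classes 2 of 4 GABAergic markers. These limits were set after seeing the shares (5 and 3 were tried first). No doublet caller was run; mixed clusters stayed unnamed. A log2 ratio is that of mean TPM plus 1, and a gene counts as higher or lower from a ratio of 1 or -1. Software was igraph 0.11.9, scikit-learn 1.9.0, matplotlib 3.10.9, scipy 1.17.1, pandas 2.3.3 and numpy 2.4.6 under Python 3.11.15. The ratio computation was tested on resampled TRN glutamatergic nuclei, with known folds put into some genes. The members and gene lists were chosen with earlier results of these data known. Besides the members, named genes are other Kv1 genes, partners past the 2-fold limit, class markers, and those of the 3 genes ranked most like each member that can be reported here; genes of the adjacent, NeuN and glial comparisons followed the same limit. No animal is named, so no p-value was computed.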

Additional observations from a re-analysis of the deposited data

Results flagged for a closer look

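Mean TPM by plate was checked for a single plate far from the others in 24 groups of plates, and 2 stood apart; for normally distributed values the 95% limits used would mark about 1 in 20 groups by chance. Kcna4 averaged 30.4 TPM on 1 of 6 plates of hippocampal GFP-sorted GABAergic nuclei, while the other 5 lay between 0 and 10.98 TPM. Kcna3 averaged 18.1 TPM on 1 of 8 plates of NeuN-sorted TRN glutamatergic nuclei, while the other 7 lay between 0 and 8.36 TPM.

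Kcnc2 and Kcnc4 had opposite GABAergic to glutamatergic differences in TRN and hippocampal plates. For Kcnc2 the log2 ratio was -2.62 in the TRN, below 0 on 14 of 14 plates, and 2.60 in the hippocampus, above 0 on 7 of 7 plates. For Kcnc4 it was 2.75 in the TRN, above 0 on 14 of 14 plates, and -1.80 in the hippocampus, below 0 on 7 of 7 plates. The difference between the tissues was not tested. The hippocampal plates held nuclei sorted on GFP and came in another table, so tissue, sort and table cannot be told apart.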

How the results depend on the processing

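Of the members past the 2-fold limit, the 3 in the GABAergic against glutamatergic comparison kept their sign and the limit under each alternative run. The 7 in the Spp1-only against Ecel1-only comparison had 11 values inside the limit and 1 of the other sign, the 5 in the TRN against GFP-sorted comparison 5 and 2 of 220, and the 6 in Patch-seq 6 and 1 of 30. The 5 in the hippocampal comparison had 1 of 55 inside the limit and kept their sign. A ratio that rounded to 0.00 was also counted as of the other sign. Kcna4 reversed to 0.68 for Spp1-only against Ecel1-only in dye-sorted nuclei. It also reversed to 1.02 for TRN against GFP-sorted nuclei without the striatum. Kcna3 was at 0.00 in Patch-seq without 1 batch, where no cell held it (-2.92 without another), which is no reversal. Counts that moved by over 1.5 times were GABAergic members higher (2 by a marker gate and 2 in dye-sorted nuclei, against 1), Spp1-only members lower (1 with a pseudocount of 10 TPM and 2 in dye-sorted nuclei, against 4), TRN members lower (2 as a difference of mean log2 values, against 4) and higher (2 without the striatum, against 1), and negative pairs (0 with detected genes partialled out, against 2; Kcnc1 with Kcnc4 had -0.20 to 2 decimals both ways and passed the limit of -0.2 as measured alone). The cause was not tested. Leaving out each plate gave 1 GABAergic member higher and 2 lower, 3 Spp1-only members higher and 3 to 4 lower, and 1 TRN member higher and 3 to 4 lower; leaving out each Patch-seq batch gave 0 to 3 higher and 3 to 4 lower, and each hippocampal plate 3 to 4 and 2. The striatum is 1 plate and was left out as a region. The Patch-seq and hippocampal alternatives, those without the low-Pvalb cluster and those on oligodendrocyte markers were chosen after seeing the data. No paired analysis was possible because replicate numbers were given in accession order and pair no samples; classes on the same plate were set against each other by their ratio, without a test. Depth is unknown, and a gene listed at 0 may have been missed: Kcna3, Kcna4 and Kcnc4 means rest on few nuclei.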

Other observations

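The 43 hippocampal nuclei without a sort label entered no comparison; 32 of them were glutamatergic neuron-like. Kcna1 averaged 79.8 TPM in these 32 nuclei, Kcna4 58, Kcnc2 63.1, Kcnc1 26.8 and Kcnc4 14.4 TPM. The GFP-sorted hippocampal glutamatergic nuclei had 52.1, 63.02, 48.97, 35.6 and 20.5 TPM of the same genes. The 38 TRN GABAergic nuclei with both Spp1 and Ecel1 above 0 had 169.3 TPM of Kcna1, between the 225.4 TPM of Spp1-only and the 70.1 TPM of Ecel1-only nuclei, and 163.4 TPM of Kcnc1. In the nuclei with neither gene Kcna1 averaged 96.7 TPM and Kcnc1 151.3 TPM.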
